A study of Rattus norvegicus with 16 samples.

Results

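The 10 genes described here encode parts of the insulin signalling chain of the liver cell and factors tied to its FOXO branch: the insulin receptor (Insr), the receptor substrates Irs1 and Irs2, the regulatory subunit of phosphoinositide 3-kinase (Pik3r1), the kinase Akt2, the transcription factors Foxo1, Foxo3 and Cebpb, the pseudokinase Trib1 and the kinase Sik1. They were chosen with earlier results of these data known and were matched by gene symbol. All 10 were found among the 22093 genes with a probe set that carries 1 symbol. Each had 1 such probe set, and for all 10 its identifier names the same chromosome as RefSeq's GRCr8 table. Liver pieces came from male Wistar (RccHan:WIST) rats, aged 7 to 8 weeks. Control animals ate untreated feed, and treated animals ate feed with 3000 ppm phenformin, a glucose-lowering biguanide known to inhibit respiratory complex I, for 3 or 14 days. Each of the 4 groups holds 4 arrays here, numbered by the labels as biological replicates, while the labels speak of 5 animals a group. Animals shared cages in groups of 2 or 3, and the sources used here give neither the cage mates nor the hour of necropsy nor the time since the last meal.

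Insulin binding makes the receptor phosphorylate its substrates, which dock phosphoinositide 3-kinase through its regulatory subunit, and the lipid it makes recruits AKT to the membrane. AKT phosphorylates FOXO proteins and so keeps them out of the nucleus, where in the unfed state they raise genes of glucose output, Igfbp1 and the receptor and Irs2 themselves. These steps run through protein phosphorylation, which an mRNA array does not measure. Values are log2 of the deposited array intensity. Means are given ± SD over 4 arrays, and changes ± SE from limma, with p-values adjusted by the Benjamini-Hochberg method over all 22093 genes and a call at an adjusted p under 0.05. A piece of liver holds several cell types, so fewer cells of a type and less mRNA per cell cannot be told apart.

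Pik3r1 was the 1 gene of the 10 that was called with all 16 arrays in the fit, and it fell. At day 3 its control livers read 12.88, 14.27, 13.66 and 13.53 and its treated livers 12.04, 12.95, 13.02 and 12.92. At day 14 control livers read 13.37, 13.44, 13.47 and 12.98 and treated livers 12.01, 12.37, 11.62 and 12.18. All 4 treated arrays thus lay below all 4 control arrays at day 14, while at day 3 only treated replicate 1 lay below the control range. With both days weighed equally the level was 2.09-fold lower (95% interval 1.58 to 2.76; log2 change -1.06 ± 0.19; adjusted p = 0.00749). Taken alone, neither day passed, with a change of -0.85 ± 0.27 at day 3 (1.80-fold, 1.22 to 2.68; adjusted p = 0.192) and of -1.27 ± 0.27 at day 14 (2.41-fold, 1.63 to 3.58; adjusted p = 0.0578). Over both days 3.16% of all genes were called, 1.61% lower (at day 3 1.15% and at day 14 0.321% in either direction), and at day 14 2.44% of all genes had every treated array below every control array. Leaving out any 1 of the 16 arrays kept the call over both days, with changes between -1.18 and -0.95 and adjusted p between 0.00357 and 0.0171. The day-14 comparison passed in 5 of 9 alternative fits (lowest adjusted p = 0.0372).

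The order of the group means of Pik3r1 was control day 3 (13.58 ± 0.57), control day 14 (13.32 ± 0.23), treated day 3 (12.73 ± 0.46) and treated day 14 (12.04 ± 0.32). Each neighbouring pair in this order had overlapping ranges, and control livers of the 2 days differed by -0.27 ± 0.27 (adjusted p = 0.934). The 250 bases before the gene start that RefSeq lists for Pik3r1 (GRCr8, chr2:34697661-34697910, minus strand) are shown because this gene carried the called change. They were searched on both strands for GTAAACA, a core of FOXO sites, TGACG, a half-site of CREB, and CACGTG, the E-box bound by clock factors. None of the 3 strings is present in this window, which is 77.2% G or C.
Pik3r1: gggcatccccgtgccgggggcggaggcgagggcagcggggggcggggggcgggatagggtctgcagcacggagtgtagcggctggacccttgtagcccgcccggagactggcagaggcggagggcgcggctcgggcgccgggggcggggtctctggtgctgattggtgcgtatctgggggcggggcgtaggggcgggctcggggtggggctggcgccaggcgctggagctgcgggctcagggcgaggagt

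**Figure D1:**
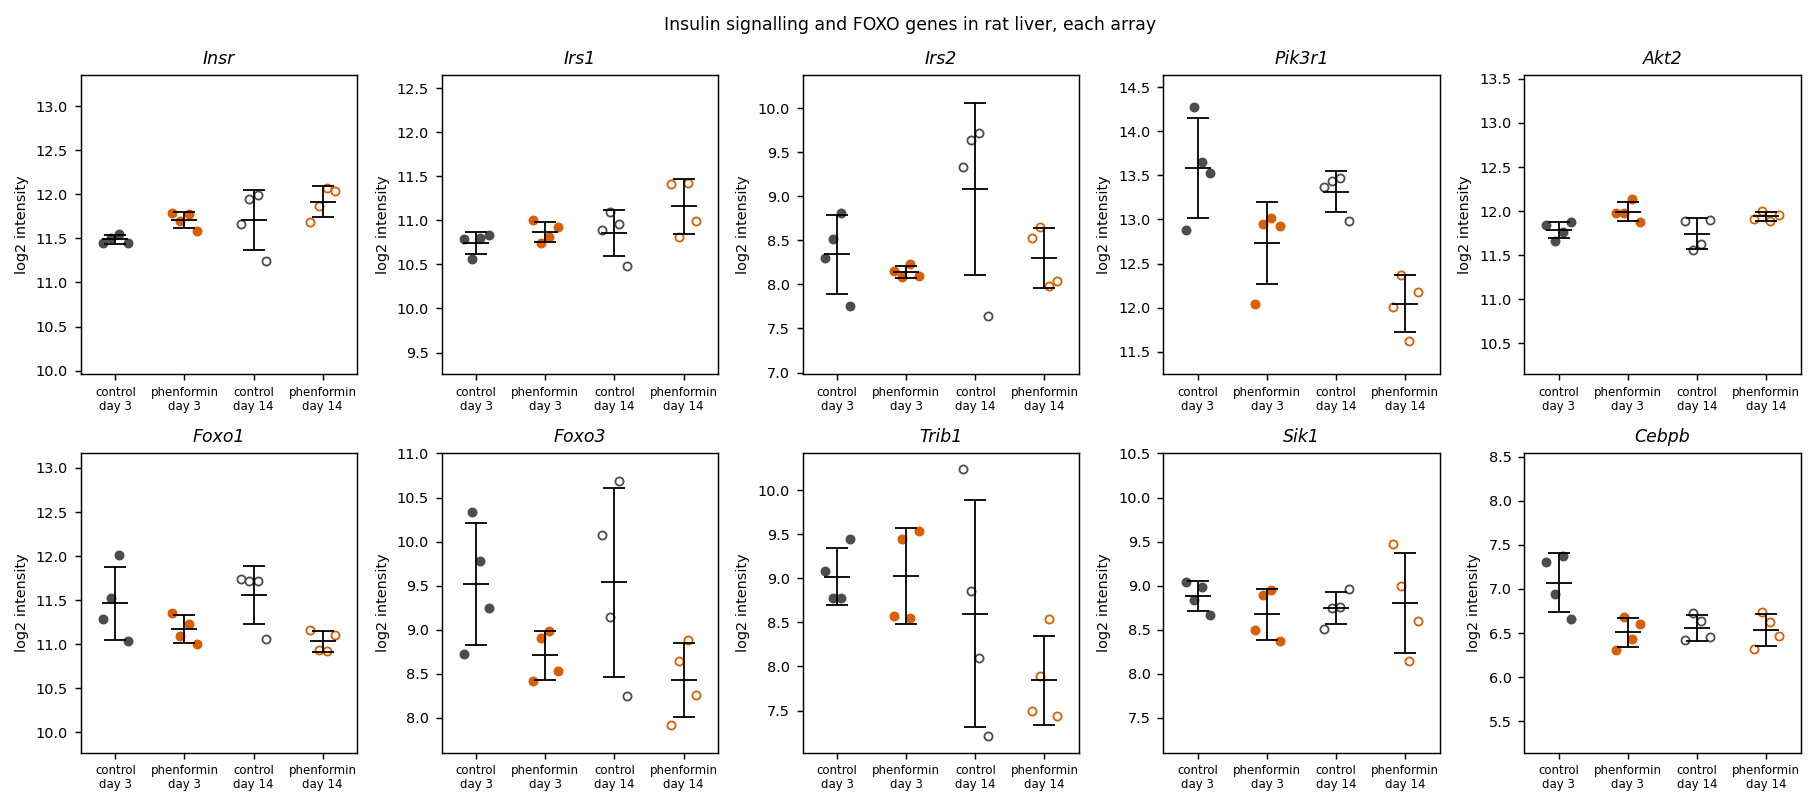
Log2 intensity (vertical axis, each panel spanning the same number of log2 units) of the 10 genes in each array of the 4 groups (horizontal axis). Circles are single arrays, filled for day 3 and open for day 14, grey for control and orange for phenformin, and lines give the group mean ± SD. All open orange circles of Pik3r1 lie below the open grey ones, while for Irs2, Foxo1, Foxo3 and Trib1 at least 1 control array of day 14 lies among or below the treated ones.

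The receptor and Irs1 stood slightly higher in treated livers and Irs2 lower, and none of the 3 passed. Insr, the receptor itself, read 11.45, 11.51, 11.55 and 11.45 in control and 11.79, 11.70, 11.77 and 11.59 in treated livers of day 3, with no overlap. At day 14 it read 11.66, 11.94, 11.99 and 11.25 in control and 11.69, 11.87, 12.07 and 12.04 in treated livers, where the ranges overlapped. The change was 0.22 ± 0.14 at day 3 and 0.21 ± 0.14 at day 14 (adjusted p = 0.634 and 0.627), and 0.22 ± 0.10 over both days (adjusted p = 0.276, interval 0.01 to 0.42). At day 3, 3.51% of all genes had every treated array above every control array. The Insr window of RefSeq (GRCr8, chr12:6128804-6129053, minus strand) is shown because it is the 1 promoter among the 7 available for these genes that holds the FOXO string. Capitals mark TGTTTAC, which is GTAAACA on the other strand and begins 100 bases before the gene start, and a TGACG that begins 113 bases before it. Of 27457 promoter windows of this length, 3.29% hold the FOXO string on either strand, 18.8% the CREB half-site and 5.73% the E-box.
Insr: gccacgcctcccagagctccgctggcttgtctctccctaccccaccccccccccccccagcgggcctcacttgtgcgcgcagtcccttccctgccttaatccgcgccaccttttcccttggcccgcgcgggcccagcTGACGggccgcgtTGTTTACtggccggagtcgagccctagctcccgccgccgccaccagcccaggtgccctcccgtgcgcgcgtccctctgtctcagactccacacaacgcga

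Irs1, one of the main docking substrates of the receptor, read 10.78, 10.56, 10.80 and 10.83 in control and 11.00, 10.75, 10.82 and 10.93 in treated livers of day 3. At day 14 it read 10.89, 11.10, 10.96 and 10.49 in control and 11.41, 10.81, 11.42 and 10.99 in treated livers. The ranges overlapped on both days, and the changes were 0.13 ± 0.15 and 0.30 ± 0.15 (adjusted p = 0.86 and 0.477). Irs2, the substrate whose gene insulin represses, read 8.30, 8.52, 8.81 and 7.75 in control livers of day 3 and 8.15, 8.09, 8.24 and 8.10 in treated ones, which all lay within the control range. At day 14 its control livers read 9.33, 9.63, 9.72 and 7.65 and its treated livers 8.53, 8.65, 7.98 and 8.04. The first 3 of these control arrays stood above every treated array and control replicate 4 below all of them. The change at day 14 was -0.78 ± 0.36 (adjusted p = 0.433). It was -1.26, with an adjusted p of 0.0175, in the fit without control replicate 4 of day 14. Leaving out the lowest control array deepens the fall by construction. At day 3 the change of Irs2 was -0.20 ± 0.36 (adjusted p = 0.93).

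Akt2, the AKT form that predominates in liver, stood higher in treated livers by small amounts that did not pass. At day 3 it read 11.84, 11.67, 11.76 and 11.88 in control and 11.97, 11.98, 12.14 and 11.88 in treated livers, with the lowest treated array above the highest control array by less than the second decimal shows. At day 14 control livers read 11.89, 11.56, 11.63 and 11.90 and treated livers 11.91, 12.00, 11.89 and 11.96, so that 3 of 4 treated arrays lay above the control range. Over both days the change was 0.20 ± 0.06, with an interval of 0.07 to 0.34 (adjusted p = 0.106). The interval at each day reached no higher than 0.40 log2 units.

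Foxo1 and Foxo3, the FOXO factors, both read lower in treated livers on each day without passing. Foxo1, the main FOXO factor of glucose output, read 11.29, 11.52, 12.02 and 11.04 in control and 11.36, 11.09, 11.23 and 11.00 in treated livers of day 3. At day 14 control livers read 11.74, 11.71, 11.72 and 11.06 and treated livers 11.16, 10.94, 10.93 and 11.10. Control replicate 4 thus fell among the treated arrays and the other 3 stood above all of them. The changes were -0.29 ± 0.19 and -0.53 ± 0.19 (adjusted p = 0.652 and 0.273), and -0.41 ± 0.13 over both days (adjusted p = 0.112). Foxo3, a second family member with overlapping targets, read 8.72, 10.33, 9.77 and 9.24 in control and 8.42, 8.90, 8.99 and 8.54 in treated livers of day 3. At day 14 it read 10.07, 9.14, 10.69 and 8.25 in control and 7.92, 8.65, 8.88 and 8.26 in treated livers. Its ranges overlapped on both days, and its control livers spread more widely (SD 0.69 and 1.07) than its treated livers (0.28 and 0.42). The changes were -0.81 ± 0.43 and -1.11 ± 0.43 (adjusted p = 0.562 and 0.335), and -0.96 ± 0.31 over both days (adjusted p = 0.113). Without control replicate 4 of day 14, both genes passed over both days, Foxo1 at -0.49 (adjusted p = 0.0321) and Foxo3 at -1.17 (adjusted p = 0.0227). That array was the lowest control of its day for both genes, so leaving it out deepens the fall by construction.

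**Figure D2:**
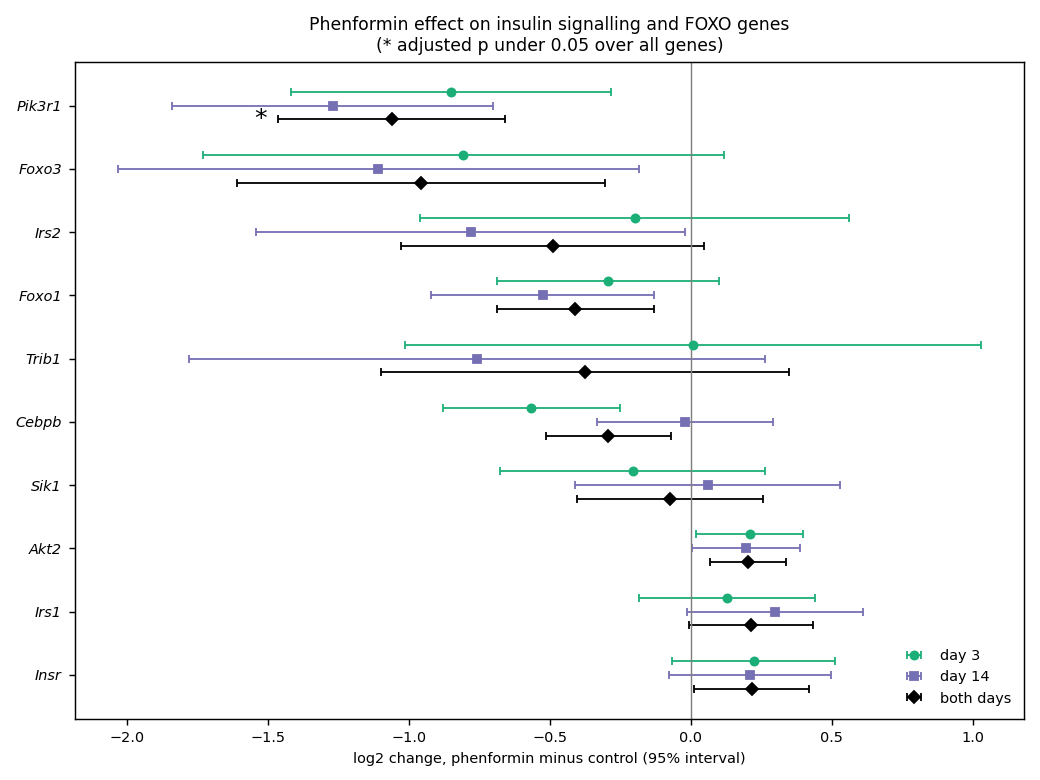
Log2 change of the 10 genes, phenformin minus control (horizontal axis), with 95% intervals from limma, at day 3 (circles), at day 14 (squares) and with both days weighed equally (diamonds). The asterisk marks the 1 call, Pik3r1 over both days at -1.06, and the intervals of Akt2, Irs1 and Insr reach at most 0.61 log2 units.

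Trib1 and Sik1 showed no change that passed, with wide intervals for Trib1. Trib1, a pseudokinase that hands C/EBP factors to degradation, read 9.09, 8.77, 8.77 and 9.45 in control and 8.58, 9.45, 8.54 and 9.54 in treated livers of day 3. At day 14 control livers read 10.24, 8.85, 8.10 and 7.21, the widest range of any of these genes in any group (3.03 log2 units), and treated livers read 7.49, 7.89, 8.54 and 7.44. The change at day 3 was 0.01 ± 0.48 (adjusted p = 0.998) and at day 14 -0.76 ± 0.48 (adjusted p = 0.615, interval -1.78 to 0.26). That interval reaches from a 3.43-fold lower level to a higher one, so a change of Trib1 within it could not be seen with these arrays. Sik1, a kinase induced through CREB that holds back CREB's coactivators, read 9.04, 8.84, 8.98 and 8.67 in control and 8.49, 8.89, 8.95 and 8.37 in treated livers of day 3. At day 14 it read 8.51, 8.75, 8.76 and 8.96 in control and 9.47, 9.0, 8.14 and 8.60 in treated livers. The groups overlapped on both days, with changes of -0.21 ± 0.22 and 0.06 ± 0.22 (adjusted p = 0.842 and 0.961). Its window (GRCr8, chr20:9958647-9958896, minus strand) is shown as an example that holds the CREB half-site more than once. The window of Cebpb, not shown, does so too. The 2 runs in capitals are CGTCA, the half-site on the other strand.
Sik1: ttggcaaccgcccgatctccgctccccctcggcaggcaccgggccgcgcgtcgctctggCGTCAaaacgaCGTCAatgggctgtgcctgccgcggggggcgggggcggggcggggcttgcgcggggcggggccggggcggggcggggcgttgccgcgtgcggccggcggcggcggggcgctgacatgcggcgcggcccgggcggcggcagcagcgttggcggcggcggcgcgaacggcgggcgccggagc

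Cebpb, the C/EBP factor that cAMP and inflammation induce, read lower in treated livers at day 3 and much the same at day 14, and neither day passed. It read 7.31, 6.94, 7.38 and 6.66 in control and 6.31, 6.68, 6.44 and 6.60 in treated livers of day 3, where 3 of 4 treated arrays lay below the control range. At day 14 it read 6.42, 6.72, 6.64 and 6.45 in control and 6.32, 6.73, 6.62 and 6.47 in treated livers, which overlapped. The change was -0.57 ± 0.15 at day 3 (1.48-fold lower, 1.19 to 1.84; adjusted p = 0.0969) and -0.02 ± 0.15 at day 14 (adjusted p = 0.98). It passed at day 3 without control replicate 4 of that day (-0.70, adjusted p = 0.0273), which was its lowest control array. It also passed with array weights (-0.61, adjusted p = 0.04). Control livers stood 0.51 ± 0.15 log2 units lower at day 14 than at day 3 (change -0.51; adjusted p = 0.257), and the day-14 change exceeded the day-3 change by 0.54 ± 0.21 (adjusted p = 0.841). The day-3 change and both of these share the control arrays of day 3, so they are not separate results. Those arrays averaged 7.07, against 6.51 (treated, day 3), 6.56 (control, day 14) and 6.54 (treated, day 14). These means (6.51 to 7.07) lie close above the median gene (5.86). Detection calls were not used here. The window of Cebpb holds TGACG or its reverse complement CGTCA 3 times. Promoters of Irs2, Foxo3 and Trib1 were not in the table used.

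Counted together, 0 of the 10 genes were called at day 3 and 0 at day 14 by limma, and 1 fell and 0 rose over both days. An unadjusted p under 0.05 was found for 3, 5 and 6 of them, where 10.6%, 11.2% and 16.2% of all genes had one. The median change of the 10 was -0.20, -0.27 and -0.33, against 0.0066, 0.00026 and 0.0025 for all genes. The 10 genes were chosen with earlier results of these data known, so these shares and medians are not independent of the data. None of the 10 was called for a difference between the effects of the 2 days (1 with an unadjusted p under 0.05, Cebpb), a comparison in which 0.00453% of all genes passed and 4.68% had such a p. Nor was any called between control livers of the 2 days (again Cebpb alone with an unadjusted p under 0.05), where 0.403% of all genes passed and 7.15% had such a p.

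Control replicate 4 of day 14 read low in this gene set. It was the lowest of its group for 7 of the 10 genes, and its mean distance from the group means was -0.55 log2 units, the furthest of the 16 arrays. Of 5 further genes of the same axis, 4 lay outside the range of the other 3 control livers in that array. Igfbp1, a secreted binding protein that insulin represses through FOXO, read 14.21, 14.53 and 15.19 in the other 3 control livers and 8.88 in this one. Pck1, the first committed enzyme of gluconeogenesis, read 17.86, 18.36 and 18.50 against 16.69, and Pdk4, which spares pyruvate in the unfed state, 13.15, 13.53 and 14.34 against 11.81. Srebf1, the lipogenic factor that insulin induces, read 10.69, 9.90 and 7.81 against 11.49. G6pc1 lay within their range, with 14.45, 15.88 and 15.53 against 14.76. For some genes replicate 4 read low in other groups too. It was the lowest in all 4 groups for Igfbp1 (12.06 in control and 13.25 in treated livers of day 3, and 13.40 in treated livers of day 14) and for Pck1 (16.37, 15.68 and 18.14). For G6pc1 it was lowest in both groups of day 3 only, and for Pdk4 in both groups of day 14 only. Among the 10 genes, replicate 4 was the lowest for 5 in control and 4 in treated livers of day 3. In treated livers of day 14 it was the lowest for 1, and replicate 3 for 5. Of 18 genes known to be raised by liver FOXO, 13 were lowest of the group in control replicate 4 of day 14. Replicate 4 was lowest for 7 of them in control and 7 in treated livers of day 3, and for 6 in treated livers of day 14. How many of all genes were lowest, or outside the range of the others, in these arrays was not counted. The counts above therefore cannot be called particular to these genes. Over all genes the root mean square distance of control replicate 4 of day 14 from the group mean was 0.26 log2 units, the highest of the 16, the others lying between 0.18 and 0.24. Without it, 2 of the 10 genes were called at day 14 (Irs2 and Pik3r1) and 4 over both days (the same pair, Foxo1 and Foxo3), all lower, while 0.597% and 3.7% of all genes were called. Irs2 was then also 1.22 log2 units higher in control livers of day 14 than of day 3 (adjusted p = 0.0427). In that comparison 0.208% of all genes were called without this array. It was the lowest control array of Irs2 at day 14, so leaving it out raises that control mean by construction. This array was singled out for its low values in these same genes, so the added calls are not separate support for a change. The meal state of this animal was not recorded in the sources used here, and its part in these values was not tested.

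**Figure D3:**
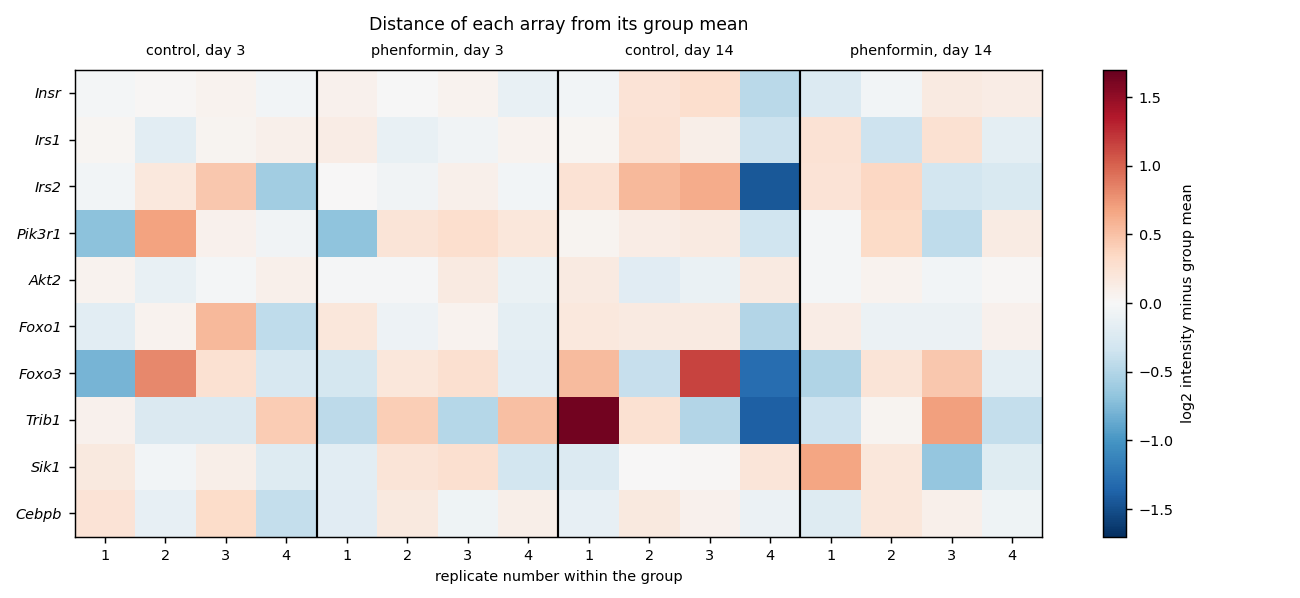
Log2 intensity of each array minus the mean of its group (colour scale) for the 10 genes (rows) in the 16 arrays (columns, replicate numbers within each group). Blue is below and red above the group mean, and control replicate 4 of day 14 is the column with the most blue, deepest for Irs2, Trib1 and Foxo3.

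The genes whose 4 group means were most like those of Pik3r1, after each gene was centred on its own mean, were Hlf, Dio1 and Myc. Likeness was the root mean square difference over the 4 groups, and it was 0.06, 0.09 and 0.09 log2 units. Because these genes were picked for this likeness, the direction and size of their changes follow from the choice. Hlf, a transcription factor of the clock output family, read 8.70, 7.78, 8.51 and 7.23 in control day 3, treated day 3, control day 14 and treated day 14, and over both days it fell by 1.10 ± 0.18 on the log2 scale (adjusted p = 0.00504). Dio1, the deiodinase that activates thyroid hormone in liver, read 13.24, 12.14, 12.78 and 11.52 in the same order, and fell at day 3, at day 14 and over both days (adjusted p = 0.0247, 0.0239 and 0.00142). Myc, a growth-promoting transcription factor, read 8.07, 7.09, 7.59 and 6.29 and did not pass over both days (-1.13 ± 0.33, adjusted p = 0.0749).

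The rest of the pathway was followed through 6 lists, of which 105 genes are analysed here. Over both days 4 of the 105 rose and 10 fell, which is 13.3% against 3.16% of all genes. At day 3, 2 rose and 4 fell (5.71% against 1.15% of all genes). At day 14, 0 rose and 1 fell (0.952% against 0.321%, with 18 at an unadjusted p under 0.05). The lists were chosen with earlier results of these data known, so these shares are not independent of the data. Of the 10 falls over both days, 6 were of genes that insulin is known to raise in liver: 6 of 12 fell over both days and 0 rose (median change -1.30 against 0.0025 for all genes). Among them were Mlxipl, the carbohydrate-responsive factor (1.78-fold lower, 1.45 to 2.19; adjusted p = 0.00504), the desaturase gene Scd (5.97-fold, 2.74 to 13.0; adjusted p = 0.0163), the lipid droplet gene Pnpla3 (6.25-fold, 2.92 to 13.4; adjusted p = 0.0123) and Thrsp, a lipogenic cofactor (2.46-fold, 1.63 to 3.70; adjusted p = 0.0198). The other two were Insig1 and Elovl6, named to complete the count, and the probe set that stands for Elovl6 has no chromosome in its identifier, so its identity is uncertain. At day 3 Pnpla3 passed alone in this list and at day 14 Mlxipl. Pnpla3 was 14.7-fold lower at day 3 and 2.66-fold at day 14 (adjusted p = 0.502). Its treated livers of day 14 averaged 5.57, under the median gene (5.86), and its control livers of day 3 ranged from 8.84 to 13.27. Srebf1 itself did not pass (-1.12 ± 0.50 over both days, adjusted p = 0.28). Without control replicate 4 of day 14, 5 of these 12 genes were called over both days (Elovl6 no longer passing) and 0 at day 14 (Mlxipl no longer passing). That alternative was chosen after seeing the data.

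Of 18 genes that FOXO is known to raise in liver, 1 fell and 0 rose over both days (median change -0.04), namely Mttp, the transfer protein of lipoprotein assembly (1.59-fold lower, 1.38 to 1.84; adjusted p = 0.00242), which also fell at day 3 (adjusted p = 0.0191) and not at day 14 (-0.62 ± 0.14, adjusted p = 0.0691), except without control replicate 4 of that day. Over both days 3 of the 18 had an unadjusted p under 0.05, a share close to the 16.2% of all genes, and without that array 2 fell. Igfbp1 changed by 0.23 ± 0.83 over both days (adjusted p = 0.946) and spread between 8.88 and 16.67 in control livers. Pck1 changed by 0.08 ± 0.34, G6pc1, which releases glucose from its phosphate, by -0.04 ± 0.32, and Pdk4 by 0.70 ± 0.37 (adjusted p = 0.952, 0.976 and 0.379). G6pc1 read -0.89 ± 0.45 at day 3 and 0.80 ± 0.45 at day 14, a difference of 1.68 ± 0.64 (adjusted p = 0.841).

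The next 4 lists are small, and their counts over both days are to be read against the 3.16% of all genes called. In the list of adaptors and brakes of the receptor, 1 of 16 rose and 1 fell over both days: Shc1, the adaptor to the RAS pathway, was 1.47-fold higher (1.27 to 1.69; adjusted p = 0.0064) and the docking protein gene Gab1 1.19-fold lower (1.08 to 1.30; adjusted p = 0.0446). In the list of PI3K, AKT and downstream kinases 1 of 26 fell, a share near that background: Phlpp2, a phosphatase of AKT (1.56-fold lower, 1.30 to 1.86; adjusted p = 0.0105). Among partners of FOXO, CREB and C/EBP 2 of 23 rose, the kinases related to Sik1, with Sik3 1.25-fold higher (1.13 to 1.37; adjusted p = 0.0177) and Sik2 1.45-fold higher (1.18 to 1.78; adjusted p = 0.0465, not passing without control replicate 4 of day 14). Shc1, Phlpp2 and Sik3 also passed at day 3 (adjusted p = 0.0331, 0.0428 and 0.0307), Phlpp2 not without that array, and at day 14 0 members of these 3 lists passed by limma, with 2, 3 and 2 at an unadjusted p under 0.05. Of 12 immediate cAMP and CREB targets 1 fell, Per1, a clock repressor (2.63-fold lower, 1.79 to 3.87; adjusted p = 0.00929; at day 3 a change of -1.61 with an adjusted p of 0.0474), and 1 rose, the phosphodiesterase gene Pde4b (2.11-fold, 1.54 to 2.89; adjusted p = 0.0132). Per1 averaged 5.83 and 5.88 in treated livers of day 3 and day 14, about the level of the median gene (5.86). At day 14 the smallest adjusted p in these 4 lists was that of Gab1 (0.14), Phlpp2 (0.247), Sik2 (0.282) and Per1 (0.202). Each day's effect on the genes of these lists is drawn in the plot of day-3 against day-14 changes.

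**Figure D4:**
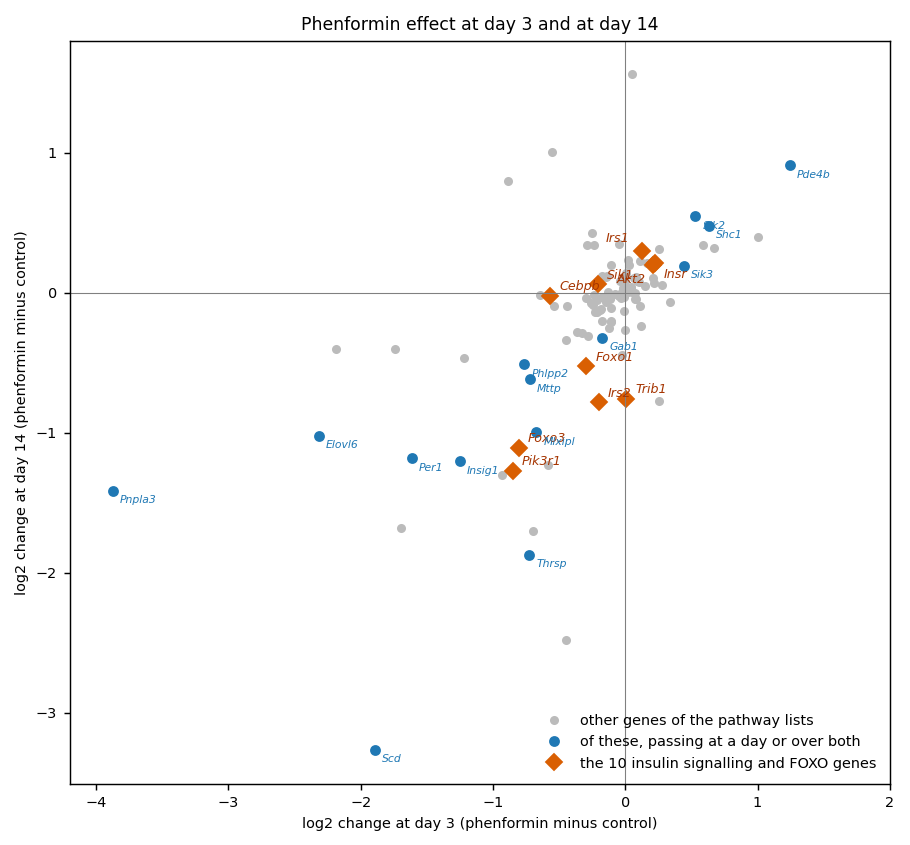
Log2 change at day 3 (horizontal axis) and at day 14 (vertical axis), phenformin minus control, for the 10 genes (orange diamonds) and the 105 other genes of the lists (circles, blue where a gene passed at a day or over both). The days share no arrays. Pik3r1 and Foxo3 lie in the lower left, with changes of -0.85 and -1.27 and of -0.81 and -1.11, and the blue circles of Scd and Pnpla3 lie furthest out.

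Neither the time comparison of control livers nor the difference between the effects of the 2 days gave a call among the 105 list genes by limma, with 11 and 5 at an unadjusted p under 0.05. Between control livers the smallest p of each list belonged to Pnpla3 (-3.54 ± 0.73 at day 14 against day 3, adjusted p = 0.0509), to Trib2, a pseudokinase related to Trib1 (-0.24, adjusted p = 0.341), to the adaptor gene Grb10 (-0.16, adjusted p = 0.58), to the kinase gene Sgk1 (-1.46, adjusted p = 0.6), to the cell cycle inhibitor gene Cdkn1b (0.27, adjusted p = 0.732) and to Fosl2, an AP-1 subunit (-0.24, adjusted p = 0.787). For the difference between the effects, day 14 minus day 3, these were Trib2 (0.28, adjusted p = 0.841), G6pc1, given above, Pnpla3 (2.46, adjusted p = 0.947), the nuclear receptor gene Nr4a2 (0.63), Pik3r3, another regulatory subunit of phosphoinositide 3-kinase (0.25), and Enpp1, an inhibitor of the receptor (-0.20), the last 3 each with an adjusted p of 1.00.

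The array median lay between 30.89 and 34.46 in linear intensity. Hepatocyte markers were high on every array (Alb, albumin, at a mean of 19.89), and 0 of 7 passed in any treatment comparison by limma, with 2, 0 and 0 at an unadjusted p under 0.05 at day 3, at day 14 and over both days. Of all genes 1.15%, 0.321% and 3.16% were called in these comparisons. The highest log2 value of any probe set was 19.93, so a change of hepatocyte markers near it, such as Alb, may not show. Apoa1 (16.91) and Serpina1 (9.80) lay lower. The absence of calls is thus no measure of unchanged hepatocyte content. Of 9 stellate cell and fibroblast markers 5 fell at day 3, 0 at day 14 and 5 over both days, with 7, 2 and 6 at an unadjusted p under 0.05. The falls were of Dcn (day 3), Reln (both days), and Lum, Col1a1, Col1a2 and Col3a1 (each of these comparisons), while Lrat, Des and Pdgfrb were not called. In control livers 2 of the 9 were lower at day 14 than at day 3. Their summed linear intensity ranged from 12994 to 17017 in control and from 10141 to 12027 in treated livers of day 3, and from 11481 to 13815 and from 10916 to 16776 at day 14. Of 7 sinusoidal endothelial markers 1 fell at day 3 (Stab2) and 1 over both days (Stab1), with 4, 1 and 3 at an unadjusted p under 0.05. Of 5 cholangiocyte markers 1 rose over both days (Epcam), with 2, 0 and 3 at such a p. The cholangiocyte sum ranged from 556 to 603 in control and from 619 to 779 in treated livers of day 3, and from 547 to 633 and from 515 to 759 at day 14. The median change of the 5 markers was nevertheless -0.11 at day 3 and -0.08 over both days. Their mean log2 level overlapped at day 3, from 6.69 to 6.74 in control and from 6.60 to 6.86 in treated livers. The called marker genes were named after their values were seen. The summed level of the endothelial list ranged from 12985 to 17331 in control and from 13229 to 16074 in treated livers of day 3, and from 15951 to 21775 and from 13721 to 22202 at day 14. Macrophage (9), lymphocyte (6), neutrophil (5), erythroid (4), pancreas (6) and adipocyte (4) markers had 0 called in any treatment comparison by limma, with at most 1 of a list at an unadjusted p under 0.05 except for the erythroid list, which had 1, 3 and 3 at day 3, at day 14 and over both days. The median change of the erythroid list was -0.39, -0.54 and -0.43 in these comparisons. Its sum ranged from 265792 to 307370 in control and from 187684 to 312693 in treated livers of day 3. At day 14 it ranged from 224095 to 346443 in control and from 118610 to 265566 in treated livers. The defining genes Ms4a1 of B cells, S100a8 of neutrophils, Gcg of pancreas and Adipoq of fat cells had means of 3.98, 4.00, 4.24 and 4.72, under the median gene. The part of stellate, endothelial, cholangiocyte and erythroid cells in the changes of Pik3r1 and the list genes was not tested.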

How the data were processed

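Gene expression was measured in 16 rat liver RNA samples on Affymetrix whole-transcript arrays of 1 colour. The deposited table holds linear intensity values for 68842 probe sets, made by the authors with RMA per the submitters' processing notes. The sources used here do not give its version or any later change of scale, so folds are ratios of deposited values. The array annotation gave 1 symbol to 23446 probe sets, several to 505 and none to 44891. The probe set with the highest mean stood for a gene, which left 22093 genes. Values were converted to log2 without pseudocount or filter and fitted with limma 3.58.1 in R 4.3.3 as 4 group means over all 16 arrays (12 residual degrees of freedom), with contrasts for each day, both days averaged, their difference and control livers over time. Intervals are 95%. The number of arrays limits the precision, and p-values measure the spread between these samples, which the titles call biological replicates.

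Members and lists were chosen with earlier results of these data known. List genes named are those called in a contrast (at most 4 by p), or else the gene with the smallest p, and Igfbp1, Pck1, G6pc1, Pdk4 and Srebf1. The labels do not say that replicate numbers mark a shared cage or day, and same-numbered arrays did not all deviate together, so numbers were not taken as pairs. Alternatives were a trended robust prior, a low filter, quantile normalization, centring, a pseudocount, array weights, the replicate block, averaged probe sets, a fit of only the groups compared, and each array left out. Some list entries are not reported here. Scripts were tested on simulated data. Promoters are from RefSeq (GRCr8), found for 7 of the 10 genes.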

Additional observations from a re-analysis of the deposited data

Results flagged for a closer look

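Of 40 sets of 4 arrays (10 genes in 4 groups), 2 held an array whose gap to its nearest neighbour made up nearly the whole range of the set by Dixon's criterion, and chance flags about 1 in 20. For Foxo1 in control livers of day 14, replicate 4 read 11.06 against 11.71 for the next, and the gap was 0.961 of the range. For Pik3r1 in treated livers of day 3, replicate 1 read 12.04 against 12.92 for the next, and the gap was 0.901 of the range.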

How the results depend on the processing

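The call of Pik3r1 over both days passed in all 8 alternatives and all 16 fits without 1 array (adjusted p between 0.00357 and 0.0171). Its day-14 change, not passing as reported, passed with the lower 30% of genes left out (adjusted p = 0.0388), quantile normalization (0.0489), a pseudocount of 16 (0.048), the replicate block (0.0372) and only the 2 groups compared (0.0459), each of which raised the number of the 10 genes called at day 14 from 0 to 1. It also passed without control replicate 1, 2 or treated replicate 1 of day 3, or control replicate 4 of day 14. In the fits without an array of day 3 the change stayed at -1.27, since those arrays enter it only through the shared spread. Control replicate 4 of day 14 was the lowest control array of Pik3r1 that day, so leaving it out deepens the fall by construction. These passes are not separate support for the day-14 fall. Array weights raised the number at day 3 from 0 to 1 (Cebpb). Over fits without 1 array, 0 to 1 of the 10 were called at day 3, 0 to 2 at day 14, 1 to 4 over both days and 0 to 1 between control livers. The upper ends came without control replicate 4 of day 3 at day 3 and without control replicate 4 of day 14 elsewhere. Of 1230 recomputed changes of single genes, 1177 kept direction and side of the threshold, 16 came to pass, 0 ceased to pass and 37 turned direction. The cause of these shifts was not tested.

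All-gene counts moved more. Day 14 (71 as reported) gave 151 with the low filter, 131 with the pseudocount and 23 with only the 2 groups compared, and 30 to 132 without 1 array. Day 3 (254) gave 405 with array weights and 102 to 277 without 1 array. Both days (699) gave 421 to 817 without 1 array and 522 to 915 over the other alternatives. The difference of effects (1) gave 0 with the low filter (737 with an unadjusted p under 0.05), 0 with the replicate block (1062), 2 with array weights and 0 to 10 without 1 array. Control livers over time (89) gave 149 with array weights, 47 with the replicate block, 0 with only those 2 groups (1635 unadjusted) and 0 to 110 without 1 array. The replicate number as a block changed no other call of the 10 genes. Deviations of same-numbered arrays from their group means correlated above 0.1 in 7 of 24 pairs (range -0.11 to 0.18), and all 6 pairs of arrays numbered 4 were above 0 (0.017 to 0.18). An array correlated best with its own number in 17 of 48 cases, a hint from the data and not the design.

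Directions turned only for changes that did not pass. Foxo3 between control livers was -0.0097 with quantile normalization (0.019 as reported) and -0.37 to 0.45 without 1 array. Trib1 at day 3 was -0.0030 with centring and -0.14 with array weights (0.0076 as reported), and -0.16 to 0.17 without 1 array. The difference of effects was 0.017 for Insr and 0.019 for Akt2 with centring (-0.014 and -0.012 as reported), and without 1 array -0.17 to 0.079 and -0.074 to 0.040, and for Foxo3 -0.73 to 0.083. Without 1 array, Sik1 ranged from -0.16 to 0.28 at day 14 and -0.19 to 0.036 over both days, and Cebpb at day 14 from -0.087 to 0.051. Between control livers Akt2 ranged from -0.095 to 0.019, Foxo1 from -0.049 to 0.28 and Trib1 from -0.97 to 0.044.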
